A study of Mus musculus with 2 samples.

Results

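Expression of 9 genes that are commonly used as reference genes was compared between wild type and luxoid mouse brain at E10.5, to describe how far each would serve as a normaliser in this comparison. The genes were Actb, Actg1, Gapdh, Hprt, Tbp, B2m, Ppia, Ywhaz and Gusb, and they were chosen by name, with all of their probes that are not control spots. They are 9 of the 37074 gene names on the array. A probe passed the signal filter when its processed signal exceeded 200 and its signal-to-noise ratio reached 5 in all 4 channels, and all 9 genes had at least 1 such probe, as did 10600 of all names. The 9 genes had 23 probes, of which 20 passed.

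The study hybridised RNA of wild type C57BL/6 brain, labelled with Cy3, together with RNA of luxoid brain, labelled with Cy5, on 2 arrays, which the labels call biological replicates. Luxoid is a spontaneous mutation of Plzf (Zbtb16) that truncates the protein, and the luxoid embryos were homozygous (Plzf lu/lu). The tissue is named as brain in the labels and as forebrain with midbrain in the methods, and the number of embryos behind each array is not given in the sources used here. The dyes were not swapped and both arrays lay on 1 slide. An effect of the dye on a probe and an effect of genotype can therefore not be told apart. The p-values rest only on the spread between these 2 arrays, with the variance pooled in part across genes. All ratios below are luxoid over wild type on the log2 scale, and array 1 and array 2 are replicate 1 and replicate 2.

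Reference genes are used on the assumption that their RNA level does not change between the samples compared, so that a difference in their signal can be read as a difference in the amount of RNA loaded. The 9 genes belong to different cellular functions. Actb and Actg1 encode the cytoplasmic actins of the cytoskeleton, Gapdh a glycolytic enzyme, Hprt an enzyme of purine salvage, Tbp the TATA-binding subunit of the general transcription factor TFIID, B2m the light chain of MHC class I, Ppia cyclophilin A, a prolyl isomerase, Ywhaz the zeta isoform of the 14-3-3 proteins, and Gusb the lysosomal enzyme beta-glucuronidase. In the study, quantitative PCR was normalised to Gapdh and immunoblots were compared with beta-actin.

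Each probe is a DNA strand of 60 bases, and a gene can have probes at several places along its transcript. The probes shown here lie upstream of the probe with the highest signal of the same gene or, for Actg1, are that probe and the one that overlaps it, and they are shown because the ratio within a gene differed between them. Coordinates are those of the array annotation, in mouse build mm9, and every Gapdh, Actg1 and Ywhaz probe is on the minus strand. The Gapdh probes are at chr6:125113312-125113371, chr6:125113229-125113288 and chr6:125112979-125113038, in transcript order, and each has at least 1 reading frame without a stop codon. The Actg1 probes are at chr11:120208409-120208468 and chr11:120208361-120208420, the Ywhaz probe is at chr15:36720668-36720727, and the second of the 3 Tbp probes, on the plus strand, is at chr17:15653677-15653736. Capitals mark the stretch in which the Actg1 probes overlap by 12 bases, of which 11 are equal. The difference is G57A, counted from 1 at the 5′ end of the first of the pair, so they cannot both match 1 transcript in full.
Gapdh A_55_P1994258: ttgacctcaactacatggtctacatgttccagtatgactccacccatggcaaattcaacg
Gapdh A_55_P1965725: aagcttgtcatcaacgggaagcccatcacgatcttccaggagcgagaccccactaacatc
Gapdh A_55_P2088912: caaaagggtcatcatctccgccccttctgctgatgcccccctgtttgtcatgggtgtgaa
Actg1 A_55_P2008907: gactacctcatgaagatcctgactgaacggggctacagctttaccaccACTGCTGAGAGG
Actg1 A_55_P1985984: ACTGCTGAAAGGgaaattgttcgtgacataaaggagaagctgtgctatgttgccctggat
Ywhaz A_55_P1987245: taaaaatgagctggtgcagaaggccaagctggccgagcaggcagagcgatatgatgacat
Tbp A_51_P461836: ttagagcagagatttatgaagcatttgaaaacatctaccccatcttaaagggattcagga

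With each gene represented by its probe of highest mean signal, none of the 9 genes passed limma at an adjusted p under 0.05, where 0.0283% of all genes tested did (3 of 10600). At an unadjusted p under 0.05, 5 of the 9 passed (Actb, Hprt, Tbp and Ywhaz higher and B2m lower in luxoid), against 27.8% of all genes. None of the 9 exceeded 1.3-fold in a common direction on both arrays, where 3.32% of all genes did (2.58% of all genes higher and 0.736% lower in luxoid). The mean ratios still ran from -0.24 for B2m to 0.46 for Actb, a range of 0.69 on the log2 scale. The median absolute mean ratio was 0.24 over the 9 genes and 0.13 over all genes tested.

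**Figure D1:**
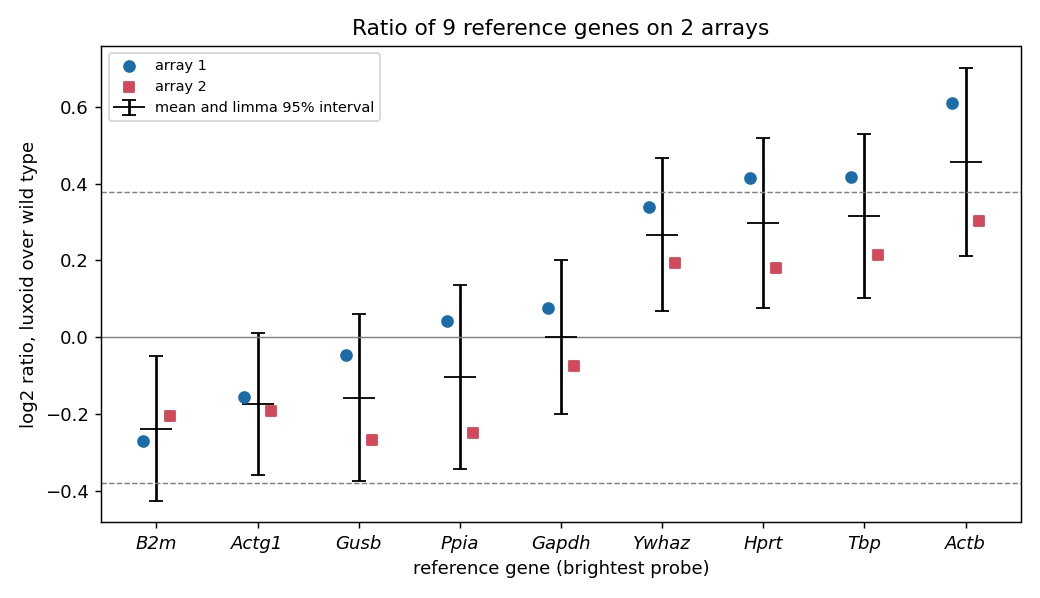
Log2 ratio of luxoid over wild type (y axis) for the 9 reference genes (x axis, in order of the mean), with array 1 as circles, array 2 as squares, the mean as a bar with limma's 95% interval, and dashed lines at 1.3-fold. Actb, Tbp and Hprt lie above the upper line on array 1 only, and no gene lies outside the lines on both arrays.

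Actb and Actg1, whose proteins differ in few residues and share the cytoskeleton, had ratios on opposite sides of 0 on both arrays, and neither passed the adjusted test. The processed signal of Actb was 43609 and 47090 in wild type and 66593 and 58121 in luxoid on arrays 1 and 2. Both luxoid signals were above both wild type signals, as was so for 4 of the 9 genes and 30.5% of all genes. The log2 ratio of Actb was 0.61 on array 1 and 0.30 on array 2, with a mean of 0.46 (limma 95% interval 0.21 to 0.70, SE 0.10, 2 arrays, adjusted p = 0.0737), a mean fold of 1.37. The mean ratio of Actb was farther from 0 than that of 96.2% of the genes tested. It rests on the only Actb probe, at chr5:143665422-143665481 on the minus strand, all 3 reading frames of which hold a stop codon. Actg1 had a processed signal of 23034 and 20923 in wild type and 20667 and 18312 in luxoid. Both luxoid signals were below both wild type signals, as for 3 of the 9 genes and 26.3% of all genes. Its ratio was -0.16 on array 1 and -0.19 on array 2, with a mean of -0.17 (interval -0.36 to 0.01, adjusted p = 0.198 by limma). The mean ratios of the cytoplasmic actins differed by 0.63, more than all other pairs of the 9 genes but Actb with B2m (0.69), a difference that was not tested.

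Gapdh, at the probe of highest signal, was the gene of the 9 with the mean ratio closest to 0. Its processed signal was 60676 and 62364 in wild type and 63988 and 59208 in luxoid, and the groups overlapped. The ratio was 0.08 on array 1 and -0.07 on array 2, so it had no common direction. The mean was 0.00 (interval -0.20 to 0.20, adjusted p = 0.995 by limma), and 0.34% of the genes tested had a mean closer to 0. Ppia, the brightest of the 9, had a processed signal of 91398 and 100507 in wild type and 94105 and 84507 in luxoid. Its groups overlapped as well. The ratio of Ppia was 0.04 on array 1 and -0.25 on array 2 (mean -0.10, interval -0.34 to 0.14, adjusted p = 0.506 by limma).

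At the probe of highest signal, Hprt, Tbp and Ywhaz gave higher signals in luxoid on both arrays, though none passed the adjusted test. Hprt, at chrX:50374757-50374816, had a processed signal of 2318 and 2707 in wild type and 3092 and 3069 in luxoid. Its ratio was 0.42 on array 1 and 0.18 on array 2 (mean 0.30, interval 0.08 to 0.52, adjusted p = 0.113 by limma). Tbp, one of the dimmest, had 308 and 338 in wild type and 411 and 392 in luxoid. All 3 genes had both luxoid signals above both wild type signals at the probe used. The other probes of Tbp, under the signal filter, and of Ywhaz were lower in luxoid on both arrays. The ratio of Tbp was 0.42 and 0.21 (mean 0.32, interval 0.10 to 0.53, adjusted p = 0.0989 by limma). For Ywhaz the signals were 5682 and 5863 in wild type and 7183 and 6709 in luxoid, and the ratio was 0.34 and 0.19 (mean 0.27, interval 0.07 to 0.47, adjusted p = 0.114 by limma). For these 3 genes and Actb, the ratio on array 1 was larger than on array 2.

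B2m and Gusb gave lower signals in luxoid on both arrays. B2m had a processed signal of 804 and 722 in wild type and 667 and 626 in luxoid. Its ratio was -0.27 on array 1 and -0.20 on array 2 (mean -0.24, interval -0.43 to -0.05, adjusted p = 0.122 by limma). The other B2m probe, designed on a separate cDNA, had signals between 6.52 and 14.0 and was not well above background. Gusb had 417 and 434 in wild type and 403 and 360 in luxoid, so that both luxoid signals were below both wild type signals. The ratio of Gusb was -0.05 and -0.27 (mean -0.16, interval -0.38 to 0.06, adjusted p = 0.291 by limma).

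**Figure D2:**
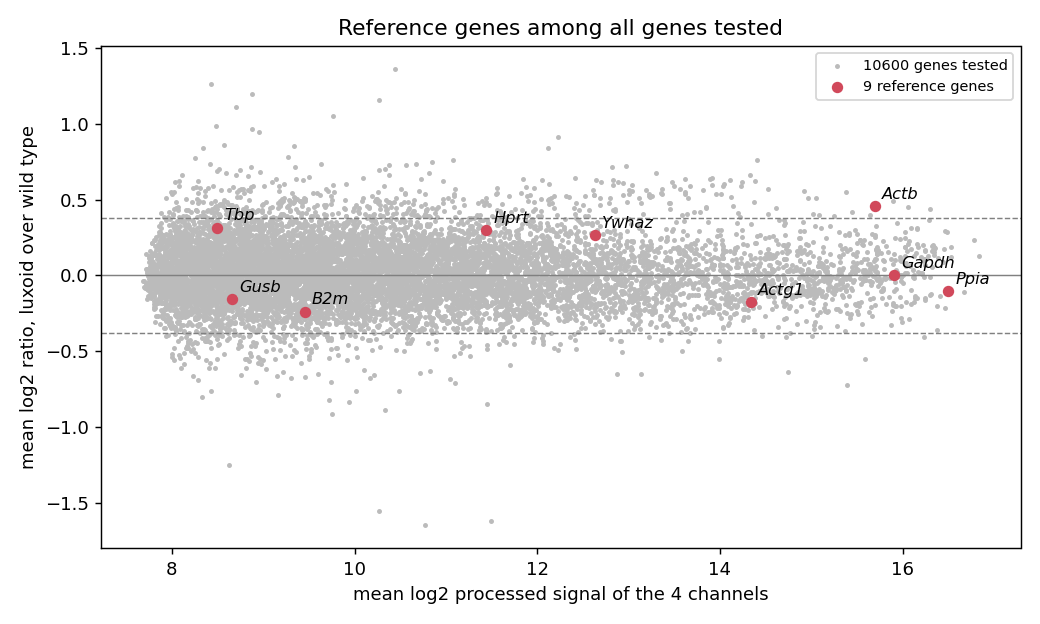
Mean log2 ratio of luxoid over wild type (y axis) against the mean log2 processed signal of the 4 channels (x axis) for the 10600 genes tested, in grey, with the 9 reference genes in red and dashed lines at 1.3-fold. Actb lies above the upper line among the brightest genes, and Gapdh lies at 0.00.

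A ratio that does not pass a test is not thereby shown to be stable, so the intervals were also set against a margin of 1.3-fold (0.38 on the log2 scale). At the probe of highest signal, the 95% interval lay wholly inside that margin for 4 of the 9 genes, Gapdh, Actg1, Ppia and Gusb. Over all genes tested the share was 62.3%, and 9 genes are too few to be compared with it. The interval of Gusb ended at -0.38, just inside the margin, and that of B2m at -0.43, just outside. For Actb, Hprt, Tbp and Ywhaz the interval reached beyond 1.3-fold, up to a fold of 1.63 for Actb. With a margin of 1.2-fold only the interval of Gapdh was inside. These intervals hold for 1 probe per gene. In the limma fit by probe, the intervals of other passing probes reached beyond 1.3-fold, down to -0.60 for Gapdh, -0.64 for Actg1 and -0.52 for Gusb.

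The probes of a single reference gene did not give a single ratio. Of the 20 probes that passed, none had an adjusted p under 0.05 when limma was run on probes (1.77% of the 13186 probes tested had), with 0.0615 as the lowest, and 12 had an unadjusted p under 0.05, against 28.9% of all probes tested, of which 8 were lower in luxoid and 4 higher. Across the 5 genes with more than 1 passing probe, the difference between the highest and the lowest mean ratio was 0.11 for Ppia, 0.17 for Gusb, 0.21 for Actg1, 0.35 for Ywhaz and 0.40 for Gapdh. These differences depended on the array, at 0.40 on array 1 and 0.066 on array 2 for Actg1, 0.55 and 0.25 for Gapdh, 0.43 and 0.26 for Ywhaz, 0.21 and 0.13 for Gusb, and 0.032 and 0.20 for Ppia.

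The 7 Gapdh probes covered the transcript from base 346 to its 3′ end. The 3 most upstream, whose sequences are given above, had the lowest ratios. The probe at base 346 had a processed signal of 9215 and 7269 in wild type and 6689 and 6159 in luxoid, and a ratio of -0.46 on array 1 and -0.24 on array 2. The probe at base 429 had 17304 and 14936 in wild type and 12450 and 11932 in luxoid, with a ratio of -0.48 and -0.32 and a mean of -0.40 (limma 95% interval -0.60 to -0.20). The probe at base 581 had a ratio of -0.38 and -0.27. Both luxoid signals were below both wild type signals for 5 of the 7 probes, these 3 and those at bases 1087 and 1324. Farther downstream, the probe at base 930 had a ratio of -0.05 and -0.14 and that at base 1087 one of -0.17 and -0.19. The last pair overlap by 17 bases at the 3′ end, yet the ratio was -0.18 and -0.28 for the probe at base 1324 and 0.08 and -0.07 for the one after it, which represents Gapdh above. That last probe was designed on a separate cDNA, and its position in the transcript was taken from this overlap. The other positions are the annotated starts in the transcript. By its genome coordinates, the probe at base 1087 would instead lie downstream of the probe at base 1324. The order used here is that of the transcript. The mean ratio was thus between -0.40 and -0.33 for the 3 upstream probes and between -0.23 and 0.00 for the other 4. Over the 7 probes, Spearman's rho of the ratio with the position was 0.82 on array 1 and 0.46 on array 2, that with the mean signal 0.86 and 0.50, and that with the GC content -0.16 and -0.52, a description over probes that share the same libraries.

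Gapdh has many processed copies in the mouse genome. The array annotation lists at least 1 transcribed pseudogene beside Gapdh for 6 of the 7 probes, by RefSeq names among Gm12070, Gm10364, Gm6498, Gm6981, Gm5523 and Gm5069. The probe of highest signal, which is not among these, shares at least 20 bases with a probe named for Gm5523. The mm9 coordinates of that probe span 8 bases, and those of the probe at base 1087 span 19. The signal of the Gapdh probes can therefore not be assigned to Gapdh alone, and the part of the copies in the ratios was not tested.

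In the other genes, too, the upstream probe mostly gave the lower ratio. Among the 6 members with more than 1 probe well above background, the mean ratio of the most upstream probe was below that of the most downstream one in 5, on both arrays in 4 (Gapdh, Tbp, Ywhaz and Gusb), and the upstream probe was the dimmer in all 6. The probes of Ywhaz, and those of Gusb, were annotated on different transcripts of the gene, and their order is that of the genome coordinates. The Ywhaz probe shown above had a ratio of -0.09 and -0.07, against 0.34 and 0.19 for the probe nearer the 3′ end at chr15:36701740-36701799. The Tbp probe shown above had signals between 89.0 and 99.6, under the filter of 200, and a ratio of -0.12 and -0.09, against 0.42 and 0.21 for the probe at chr17:15654250-15654309. The most upstream Tbp probe, at still lower signals of 51.1 to 62.2, had -0.17 and -0.06. In Actg1, the overlapping probes had -0.16 and -0.19 for the first and -0.42 and -0.26 for the second, and the probe at base 10 of the transcript had -0.56 and -0.22. The coordinates of that last probe span 387 bases, so it crosses an intron. Ppia went the other way, with 0.07 and -0.06 upstream and 0.04 and -0.25 downstream.

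**Figure D3:**
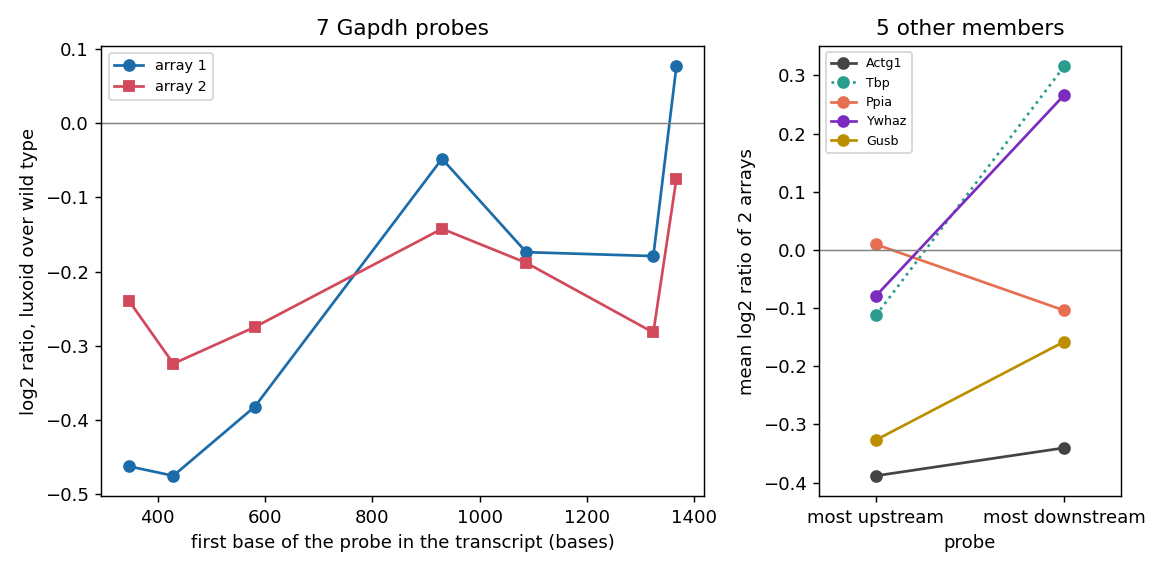
Left, log2 ratio of luxoid over wild type (y axis) of the 7 Gapdh probes against the position of their first base in the transcript (x axis, bases), with array 1 as circles and array 2 as squares. Right, mean log2 ratio of the 2 arrays (y axis) at the most upstream and the most downstream probe of the other 5 genes with several probes well above background, dotted where the upstream probe was under the signal filter; the line falls only for Ppia.

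The same direction was seen over the whole array. Of 1301 RefSeq transcripts with passing probes whose starts lay at least 200 bases apart, the upstream probe had the lower mean ratio in 80.4%, and the median difference, upstream minus downstream, was -0.23 on array 1 and -0.11 on array 2. The upstream probe was the dimmer in 87.7%. Where the GC content of the upstream probe was not above that of the downstream one (440 transcripts), the ratio upstream was lower in 75.9%. Upstream probes thus were mostly dimmer and, by a median of 5 percentage points, richer in GC, and the part of position, signal and GC content in the ratios of the reference genes was not tested.

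Variation between pairs of reference genes was measured as the SD, over the 4 channels, of the difference between their log2 processed signals, a measure that does not depend on the loading of a channel. Averaged over the 8 partners, it was lowest for Gapdh (0.157) and highest for Actb (0.261), and the mean over the 9 genes was 0.200. With each gene's probes averaged in place of the brightest one, Ppia was the lowest (0.180), and with the GC trend removed, B2m was the highest (0.298). The pairs that kept the most constant difference were Ppia with Gusb (0.0446), Hprt with Tbp (0.0447), Tbp with Ywhaz (0.0479) and Actg1 with B2m (0.0506). Those with the largest SD were Actb with B2m (0.418) and Actb with Actg1 (0.379). Over the 2 log2 ratios in place of the 4 channels, which leaves out a steady difference between genotypes, the gene with the lowest mean was Tbp (0.0698) and the one with the highest was B2m (0.187). Among the other 43 reference genes considered, members and others, the closest to Actb were Rpl4, a ribosomal protein of the large subunit (SD 0.0299), and Nono, an RNA-binding protein (0.0432), and the closest to Gapdh were Tubb5, a beta-tubulin (0.0339), and Rplp0, a ribosomal stalk protein (0.0344).

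**Figure D4:**
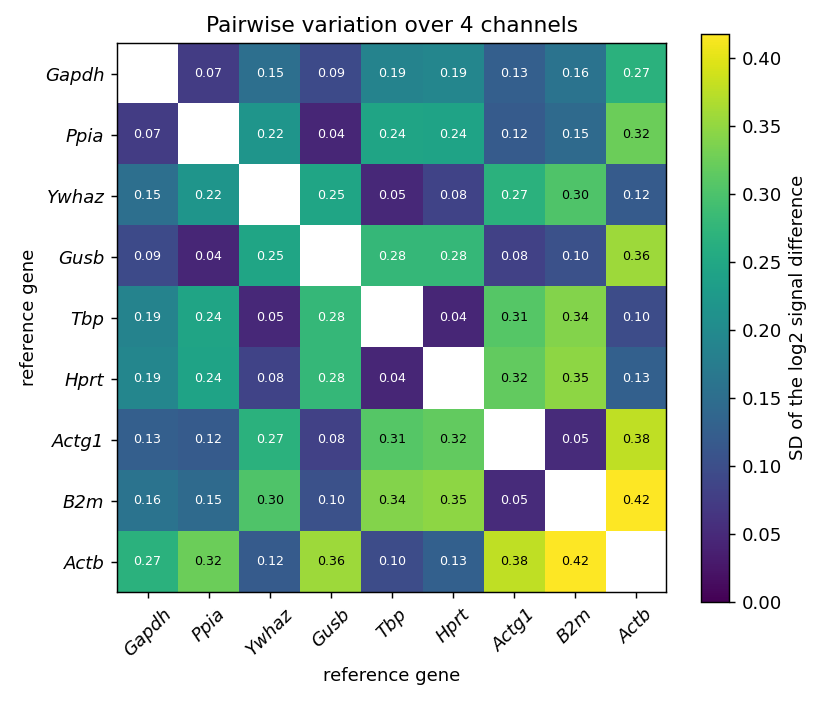
SD over the 4 channels of the difference between the log2 processed signals of each pair of the 9 reference genes (both axes, ordered by the mean over partners), with dark blue for a low and yellow for a high SD. The row of Actb holds the highest value, 0.42 with B2m.

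To see what each gene would do as the only normaliser, its ratio was subtracted from that of all genes on each array, and genes beyond 1.3-fold on both arrays were counted again. As deposited, 274 genes were higher and 78 lower in luxoid. Scaled to Gapdh the counts were 283 and 55, and scaled to Ppia 503 and 18. Scaled to Actb, 5 genes were higher and 3298 lower. Tbp (12 higher and 1499 lower), Ywhaz (17 and 1140) and Hprt (13 and 1123) turned most calls the same way. Actg1 (1056 higher and 14 lower), B2m (1448 and 8) and Gusb (887 and 14) turned them the opposite way. The mean of the 9 genes gave 145 higher and 111 lower. Since the shift applies to every gene alike, these counts restate the ratio of the normaliser in terms of calls and are no test of it.

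The counts also differed between Gapdh probes. Scaled to each of the 7 Gapdh probes in turn, the count of genes beyond 1.3-fold ran from 338 with the probe of highest signal to 3576 with the probe at base 429, of which 3571 were higher in luxoid. With the probes at bases 346 and 581 the counts were 2182 and 2539.

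**Figure D5:**
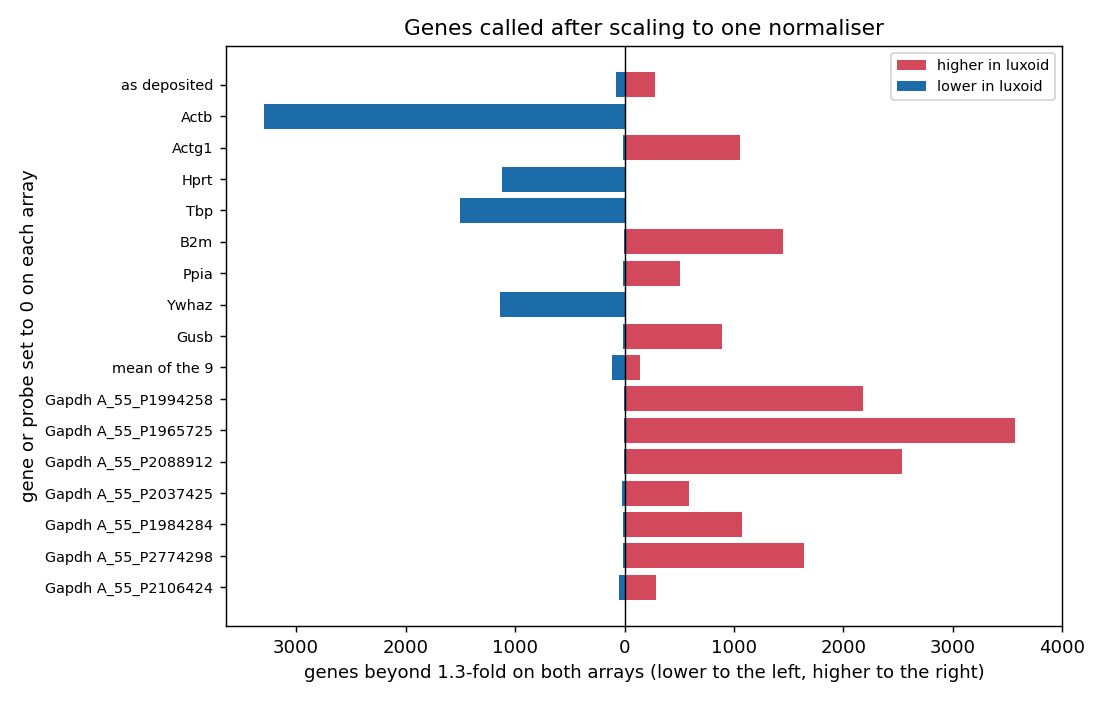
Number of genes beyond 1.3-fold on both arrays (x axis, lower in luxoid to the left and higher to the right) after each normaliser (y axis) was set to 0, for 8 of the reference genes, the mean of the 9 and each of the 7 Gapdh probes, the last of which is the probe that represents Gapdh. Scaling to Actb leaves 3298 genes to the left, and scaling to the Gapdh probe A_55_P1965725 leaves 3571 to the right.

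For scale, the ratios of Shh and Zbtb16, both larger in size than any ratio of the 9 genes, were also given after scaling. Shh, the hedgehog ligand of the ventral neural tube, had a ratio of 1.06 on array 1 and 1.03 on array 2. Its mean ratio was 0.59 when scaled to Actb, 1.05 to Gapdh and 1.29 to B2m, the lowest, the median and the highest value over the 9 genes. Zbtb16, the mutated gene itself, had a mean ratio of -1.35 as deposited, with signals of 433 and 546 in wild type and 172 and 211 in luxoid, so that it was under the signal filter on array 1. Scaled to the 9 genes its mean ratio lay between -1.81 (Actb) and -1.12 (B2m).

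A further 36 gene names in use as references elsewhere were looked up in the same way. Of these, 35 were on the array, and all 35 passed the filter. Their median ratio was 0.07, against 0.01 over all genes tested, and 20 of the 35 had the 95% interval inside 1.3-fold, against 62.3% of all genes. Top1, DNA topoisomerase I, was the only one beyond 1.3-fold on both arrays, at 0.79 and 0.47, and none had an adjusted p under 0.05 by limma (14 had an unadjusted p under 0.05, 11 higher and 3 lower, against 27.8% of all genes). After Top1, the highest means were those of Rpl4 (0.55 and 0.29) and Nono (0.51 and 0.31). Oaz1, an inhibitor of polyamine synthesis, was among the lowest (-0.47 and -0.23).

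Genes that share a function with the members were set beside them by lists. None of the genes of these lists passed limma at an adjusted p under 0.05 or was beyond 1.3-fold on both arrays. The counts that follow are at an unadjusted p under 0.05, which 27.8% of all genes tested had, both directions together. That share was not split by direction. All lists but that of the actin partners include the member itself. Among 4 measured actins, Actb was higher and the smooth muscle actin Acta2 lower (-0.39 and -0.21). Of 12 partners of cytoplasmic actin, with a median of -0.06, 2 were lower, profilin Pfn1 (-0.69 and -0.34) and cofilin Cfl1 (-0.48 and -0.22), and none was higher. All 7 genes of the 14-3-3 family were measured, with a median of 0.20, and 4 were higher (Ywhab, Ywhae, Ywhaz and Sfn) and none lower. Of 12 cyclophilins, with a median of -0.10, 1 was lower, Ppie (-0.78 and -0.30). The cyclophilin group held 11 genes with the interval inside 1.3-fold.

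Of 13 measured glycolytic genes, with a median of 0.16, 5 were higher and none lower, among them Pkm, pyruvate kinase (0.38 and 0.27), and Hk2, a hexokinase (0.67 and 0.22). Gapdh at its brightest probe thus lay below the median of its pathway. Of 12 TFIID genes, with a median of 0.09, 2 were higher, Tbp and Taf1 (0.41 and 0.29), the largest subunit. Of 10 purine genes, with a median of -0.01, Hprt was higher and Adk (-0.16 and -0.23) and Gmps (-0.23 and -0.22) were lower. Of 7 MHC class I genes, with a median of 0.00, B2m and the chaperone Calr (-0.36 and -0.34) were lower, whereas the heavy chain H2-K1 had -0.06 and 0.05. Of 11 lysosomal genes, with a median of -0.01, 3 were higher (Gaa, Lamp1 and Lamp2) and 1 lower (Ctsd), and Gusb was not among them.

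Markers of the cell types that the tissue could hold did not all move alike on the arrays. Every marker but Tcf21, of mesenchyme, was well above background in all channels. The summed signal of 10 erythroid markers was 604868 in wild type on array 1 and 242541 on array 2, and 319468 and 299865 in luxoid. The median ratio of the 8 that passed was -1.08 on array 1 and 0.22 on array 2. That of 9 of 10 neuron markers was 0.14 and 0.72, and that of 8 of 10 neural progenitor markers 0.12 and 0.44. The summed signal of the neuron markers was 8679 and 7816 in wild type and 9167 and 12397 in luxoid. In bulk tissue, fewer cells of a type and less RNA per cell cannot be told apart. The endothelial markers (3 of 10 passed) had a median of -0.28 and -0.68, the macrophage markers (6 of 10) -0.47 and -0.05, those of mesenchyme and neural crest (7 of 10) -0.15 and -0.23, and those of surface ectoderm (7 of 10) 0.46 and -0.18. The part of these cells in the ratios of the reference genes was not tested.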

How the data were processed

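RNA of wild type (Cy3) and luxoid (Cy5) brain was measured on 2 arrays with 2 dyes each. Groups and dyes were taken from the sample labels. The authors scanned the arrays and used Agilent Feature Extraction 10.7.3.1, per the file headers, to subtract background, detrend and normalise the dyes within each array. No normalisation between the arrays was applied. The files deposited hold the intensity of each spot, before and after this processing, with its local background, and the ratio of Cy5 over Cy3 as log10. A second deposited table holds the log2 ratio, within 0.005 of the first. Saturated spots were absent (0 on each array), and 36936 to 44318 of 59305 gene spots were well above background per channel.

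Control and outlier spots (137 and 126) were left out, replicate spots were averaged as log2 values, and the brightest probe represented a gene. An intercept was fitted to the log2 ratios of the arrays (R 4.3.3, package limma 3.58.1, lmFit and eBayes, p-values adjusted by Benjamini-Hochberg over all genes), which rests on the variance pooled across genes. With 200 genes changed 2-fold in each of 20 simulated sets, limma recovered 97.0% to 100.0% of them. That change is larger than the mean ratio of any reference gene described here, and the recovery of smaller changes was not simulated. The simulated errors were independent between genes and centred on 0. In the data, Shh, with a mean fold of 2.07, had an adjusted p of 0.0469 by limma, and 3 of 10600 genes passed. The simulated recovery therefore does not give the share of 2-fold changes that would pass in these data. Only 2 arrays limit the precision. Tables were handled with the R package data.table (version 1.17.8), Python 3.11.15, numpy 2.4.6 and pandas 2.3.3, and figures with matplotlib 3.10.9.

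The reference genes and lists were chosen with earlier results of these data known. Named are the 9 members, of the other reference genes the 3 highest and 3 lowest means, the 2 reference genes closest to Actb and to Gapdh in pairwise SD, and Shh and Zbtb16. Some of the genes selected in this way are not reported here. Further genes in the functional lists were named after their values were seen. Alternatives covered background correction, dye normalisation, the source of the ratios, the filter, the probe summary, the GC trend, pairing by array, the variance prior, thresholds and single arrays. Normexp with centring on passing genes, the position of probes and scaling to single Gapdh probes were added after seeing the data.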

Additional observations from a re-analysis of the deposited data

How the results depend on the processing

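Only 2 arrays from 1 slide were available, with the dyes in one orientation, so the intervals rest on pooled variance, and probes of low signal (Tbp, Gusb and B2m) have the least margin over background. None of the 9 reference genes had an adjusted p under 0.05, and this held in 7 of the 11 alternatives with a test. The number was 9 after normexp with median centring over all gene spots. That setting moved the median ratio of all passing genes to 0.65 on array 1 and 0.46 on array 2. The number was 2 (Actb and B2m) after removal of the GC trend and 1 (Actb) with a trended variance prior. After normexp with centring over the passing genes it was 4 (Actb, Gapdh, Ppia and Ywhaz). Over all 10600 genes the count rose from 3 to 9652, 707, 393 and 1514 in these settings. The number beyond 1.3-fold on both arrays, 0, became 1 after normexp and loess, 7 after normexp with centring over all spots and 3 with centring over the passing genes, and ran from 0 to 3 on a single array. The number with the interval inside 1.3-fold, 4, became 0 after normexp with centring over all spots, 2 with centring over the passing genes, 2 with the deposited log2 table, 1 with spots well above background, 0 with no filter, 2 with the mean over probes and 1 at a margin of 1.2-fold. The share of all genes inside 1.3-fold was 1.33% after normexp with centring over all spots, 35.0% with spots well above background and 0% with no filter, against 62.3%.

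With normexp and centring over all spots, all means were positive, the sign turning for Actg1 (0.58), B2m (0.30), Ppia (1.05) and Gusb (0.38). With centring over the passing genes it turned for Actg1 (0.027) and Ppia (0.49), with normexp and loess for Ppia (0.094), and with the mean over probes for Gapdh (-0.23). On single arrays the mean ran from -0.075 to 0.077 for Gapdh and from -0.25 to 0.042 for Ppia. The mean of Gapdh was 0.097 with normexp and loess. It was 1.02 after normexp with centring over all spots and 0.46 with centring over the passing genes. Actb, Hprt, Tbp and Ywhaz kept their sign in each of the 12 alternatives. Several of these could not change it, since the other filters and the unpaired fit used the same probe with the same mean ratio. The mean over probes could not move Actb, Hprt or Tbp, each with 1 passing probe. The upstream probes of Tbp and Ywhaz had negative ratios on both arrays. The mean pairwise SD was 0.0987 over the log2 ratios of both arrays in place of 0.200. In the fit without the pairing by array (no replicate block) the number with an adjusted p under 0.05 was 0, that with the interval inside 1.3-fold was 3, and no call of a mean ratio changed. Of 27 counts of genes scaled to a single reference gene under the other settings, 13 were within 1.5 times the count given and 14 were not. Where a value moved, the cause was not tested.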
